A study of Mus musculus with 16 samples.

Results

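This comparison set cortical neurons that carried an expanded huntingtin fragment against neurons that carried a fragment of normal length, with the same control shRNA in both. The libraries were chosen by their labels alone: 4 libraries of 72Q neurons and 4 of 25Q neurons, 8 of the 16 in the series. The 72Q neurons were primary cortical cultures from Swiss Webster mouse embryos at day 16 of gestation, given on day 5 in vitro a lentivirus that expresses exon 1 of huntingtin with 72 glutamines and a further lentivirus with an shRNA against luciferase, which mouse cells lack. The 25Q neurons had the same strain, age, control shRNA and timing, and a huntingtin exon 1 with 25 glutamines. RNA was taken on day 10 in vitro, 5 days after transduction, and ribosomal RNA was depleted with Ribo-Zero. Each group has 1 library in each of 4 experiments, which the labels call exp107, exp108, exp109a and exp109b. Both groups therefore received an exogenous protein fragment and 2 viruses on top of the mouse's own huntingtin gene, and neither group was untransduced. The labels name no promoter for the fragment. The labels do not say whether the experiments, among them exp109a and exp109b with their shared number, were separate dissections. The p-values measure a spread between libraries that was estimated from all 16 of the series, after a term for the experiment. Whether it holds a spread between dissections is not known.

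Huntingtin is a large scaffold protein of vesicle transport and transcription, and an expansion of its polyglutamine tract causes Huntington disease. The expanded exon 1 fragment misfolds, forms inclusions and binds transcriptional coactivators, and in patients cortical and striatal neurons are the most affected. Misfolded protein is normally removed by the proteasome, which degrades ubiquitin-tagged proteins, and by autophagy, which delivers cargo to the lysosome. Neurons in culture at this age extend axons and dendrites and form synapses, so that cytoskeletal, adhesion and calcium signalling genes are strongly expressed.

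The tract length is the only stated difference between the groups, so the mouse counterpart is printed here for orientation. The first 84 coding bases of mouse Htt in GENCODE M21 (GRCm38, chr5:34761740-34912534, plus strand) hold a run of 7 glutamine codons that starts at codon 18, in capitals, with 6 CAG and 1 CAA.
Htt: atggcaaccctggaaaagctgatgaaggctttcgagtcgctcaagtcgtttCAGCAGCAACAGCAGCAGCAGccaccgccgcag
The 2 fragments carry 25 and 72 glutamines. Their own sequences were not at hand and are not printed, so whether they match mouse Htt outside the glutamine run is not known here. Endogenous and introduced sequence cannot be told apart in a count per gene. Htt had 241, 227, 244 and 262 CPM in 72Q neurons, against 229, 273, 289.9 and 312 CPM in 25Q neurons, given here and below in the order exp107, exp108, exp109a and exp109b. All CPM values here are read counts relative to library totals, scaled by TMM (trimmed mean of M-values) factors. The groups overlapped, and Htt was slightly lower in 72Q neurons by edgeR's quasi-likelihood test with Benjamini-Hochberg adjustment (log2 fold change -0.18 ± 0.053, adjusted p = 0.00528), lower in 3 of 4 experiments. That call was lost with upper-quartile factors (-0.11, adjusted p = 0.0594), with library totals alone (-0.04, adjusted p = 0.503), without experiment exp109b (-0.15, adjusted p = 0.0584), with no term for the experiment (-0.18, adjusted p = 0.146) and with the title number as that term (-0.18, adjusted p = 0.0599). Twist1, a bHLH transcription factor of mesenchyme that the rest of the series targets, had 3.29, 5.08, 3.84 and 4.39 CPM in 72Q neurons, against 0.29, 0.55, 0.245 and 0 CPM in 25Q neurons. No 72Q library came near a 25Q library for Twist1 (log2 fold change 3.47 ± 0.3, adjusted p = 4.77e-12).

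The 8 libraries held 16589889 to 19240941 counts in genes. In 72Q libraries 20544 to 21306 genes had at least 1 count, against 20188 to 20426 in 25Q libraries, and thinning every library to the smallest total gave 20544 to 21080 genes in 72Q and 19837 to 20307 in 25Q. The mitochondrial genome took 3.16% to 3.59% of counts in 72Q and 2.41% to 2.78% in 25Q libraries. All 14 cortical neuron markers were detected in both groups. Their summed level was 4221 to 5173 CPM in 72Q and 6612 to 7603 CPM in 25Q neurons, and 12 of 14 fell and 1 rose. Astrocyte markers summed to 1114 to 1400 CPM in 72Q and 976 to 1192 CPM in 25Q, with 4 of 6 higher. Progenitor markers summed to 190.0 to 258 CPM in 72Q and 153 to 220.1 CPM in 25Q, with 5 of 6 higher. Oligodendrocyte lineage markers summed to 787 to 894 CPM in 72Q and 758 to 860 CPM in 25Q libraries, with 2 of 7 higher and 2 lower. Of all genes tested 29.3% were higher and 27.8% lower, and the oligodendrocyte counts lie near those shares. The sums of astrocyte, progenitor and oligodendrocyte markers overlapped between the groups. Microglial markers were close to absent, with 8.53 to 9.82 CPM in 72Q and 8.63 to 10.2 CPM in 25Q for all 8 together, nearly all of it Aif1, and Tmem119 at 0 in every 25Q library. In bulk RNA, fewer cells of a type and less RNA per cell cannot be told apart, and the part of these differences in the results below was not tested.

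Most measured genes differed between the groups, mostly by small factors. Of 15103 genes tested, 4431 were higher in 72Q neurons (29.3%) and 4197 lower (27.8%) at an adjusted p under 0.05, which is 8628 genes or 57.1% in all. At least 2-fold differences were seen in 555 genes that were higher (3.67%) and 634 that were lower (4.2%). The filter for these counts used all 16 libraries of the series. With the 8 libraries filtered and fitted alone, 14414 genes were tested, and 408 were at least 2-fold higher and 615 lower. Among called genes the median absolute log2 fold change was 0.41, and 5792 of the 8628 moved by less than 1.5-fold. At 4-fold or more the counts were 124 higher and 57 lower. The 4 libraries of each group did not overlap for 5781 genes (38.3%). The balance of directions depends on the scaling: 51.4% of called genes were higher with TMM factors, 60.7% with upper-quartile factors and 69.7% with library totals alone, and the median log2 fold change of all genes tested was 0.03, 0.09 and 0.16 in these fits. The share of a gene list is therefore read below against 29.3% higher and 27.8% lower.

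The size of the response differed between experiments more than its direction. For genes called in the other 3 experiments, exp107 and exp109a gave slopes of 0.79 and 0.78 on the other 3, and exp108 and exp109b gave slopes of 1.10 each. The same sign was seen for 95.4% to 97.6% of such genes. On the first principal component of the 2000 most variable genes, which held 69.8% of the variance, the 72Q libraries of exp108 and exp109b stood at -38.0 and -37.3 and those of exp107 and exp109a at -22.3 and -21.9, while all 25Q libraries stood between 29.6 and 30.3. What set exp108 and exp109b apart was not tested.

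By the largest loss of mean CPM among called genes, which favours long and abundant transcripts, the 10 genes included Map1b, Tubb5, Tuba1a, Mef2c, Dpysl3, Tubb3, Adcy1, Hmgcs1 and Actb. Tubb5, a beta-tubulin, had 1950.5, 1689.7, 1670.4 and 1205 CPM in 72Q neurons, against 3246, 3963, 2597 and 2429 CPM in 25Q neurons. Each 72Q library lay below each 25Q library (log2 fold change -0.90 ± 0.081, adjusted p = 9.3e-08). Map1b, a microtubule-associated protein of growing axons, had 6094 ± 755 CPM in 72Q and 8006 ± 1126 CPM in 25Q neurons and a smaller change (log2 fold change -0.39 ± 0.057, adjusted p = 1.04e-06). Dpysl3, a collapsin response mediator of growth cones, had 2331 ± 394 CPM in 72Q and 3454 ± 203 CPM in 25Q neurons. Actb, the cytoplasmic beta-actin, had 4335 ± 399.8 CPM in 72Q and 5205 ± 481 CPM in 25Q neurons.

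The 10 genes with the largest gain of mean CPM were mt-Rnr2, mt-Rnr1, Peg3, Vamp2, Ctsd, Map1a, Cltc, Aplp2, Syt11 and Sqstm1. The first 2 are the ribosomal RNAs of mitochondria, and their level depends on the depletion step. Peg3, a paternally expressed zinc finger gene, had 743, 714, 772 and 755 CPM in 72Q neurons, against 345, 318, 386 and 377 CPM in 25Q neurons. Its 2 groups did not overlap and were tight within themselves (log2 fold change 1.07 ± 0.05, adjusted p = 9.03e-17). Vamp2, the synaptic vesicle SNARE, had 1409.9 ± 159 CPM in 72Q and 1151 ± 109 CPM in 25Q neurons, and Cltc, the clathrin heavy chain of endocytic coats, had 1171 ± 42.4 CPM in 72Q and 971 ± 48.4 CPM in 25Q neurons. Aplp2, a relative of the amyloid precursor protein, had 808 ± 75.2 CPM in 72Q and 609 ± 31.4 CPM in 25Q neurons. Microtubule genes stood on both sides: Map1a, which binds microtubules of mature dendrites, rose to 1245 ± 47.6 CPM in 72Q, against 1032 ± 81.5 CPM in 25Q neurons while its relative Map1b fell.

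**Figure D1:**
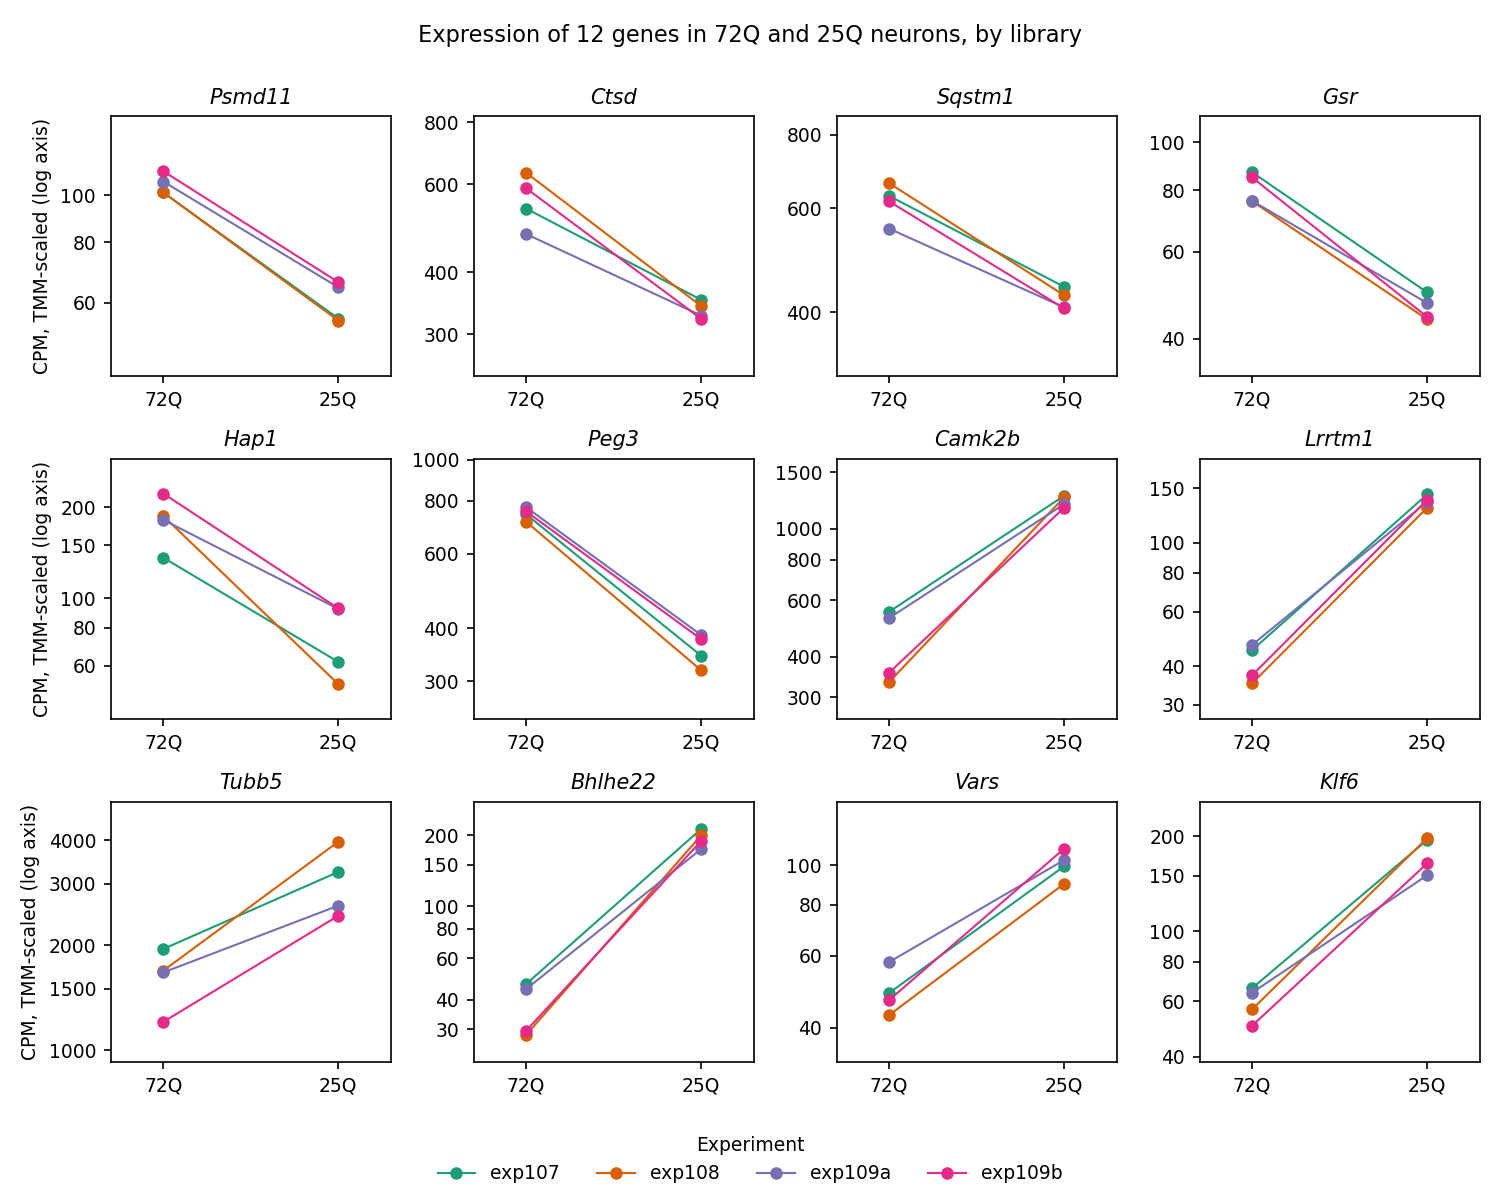
CPM scaled by TMM factors (log axis) of 12 genes in each of the 8 libraries, with 72Q neurons left and 25Q neurons right in each panel and lines joining libraries of 1 experiment. The 12 genes were picked from the changed genes named in the text. For each of them the 4 points of 72Q neurons lie apart from the 4 points of 25Q neurons, as for 38.3% of all genes tested.

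Fold changes were ranked among called genes with at least 10 CPM in both groups and the same sign in all 4 experiments. The 10 lowest log2 fold changes ran between -2.71 and -2.24, in St3gal1, Nwd2, Rgs4, Dbpht2, Pdzrn3, Bhlhe22, Met, Cpne8, Pex5l and Sla. The 10 highest ran between 2.72 and 1.22, in AW551984, Spint2, Hap1, Phlda3, Chpf2, Prune2, Sumf2, Map3k20, Igsf10 and Tpx2, with Spint2 next after AW551984 at 1.36. Bhlhe22, a bHLH repressor of cortical area and layer identity, had 46.7, 28.4, 44.5 and 29.6 CPM in 72Q neurons, against 213, 200.1, 175 and 189 CPM in 25Q neurons. Met, the receptor for hepatocyte growth factor that shapes dendrites and synapses of projection neurons, had 88.3, 37.1, 83.3 and 50.7 CPM in 72Q neurons, against 356, 259, 343 and 351 CPM in 25Q neurons. Both genes were lowest in exp108 and exp109b among 72Q libraries, and neither overlapped with 25Q (log2 fold change -2.41 ± 0.12, adjusted p = 4.54e-09 for Bhlhe22 and log2 fold change -2.39 ± 0.15, adjusted p = 2.74e-07 for Met). St3gal1, a sialyltransferase, averaged 10.8 ± 5.86 CPM in 72Q and 67.2 ± 11.4 CPM in 25Q neurons. Pex5l, an auxiliary subunit of HCN channels, averaged 32.3 ± 7.89 CPM in 72Q and 154 ± 6.26 CPM in 25Q neurons.

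On the rising side, AW551984 had 75.2, 81.3, 67.0 and 65.0 CPM in 72Q neurons, against 12.0, 7.82, 11.3 and 12.0 CPM in 25Q neurons, a gap with no overlap (log2 fold change 2.72 ± 0.14, adjusted p = 3.03e-09). Hap1, huntingtin-associated protein 1, is an adaptor that links huntingtin to dynein and kinesin motors. It had 136, 187, 182 and 222 CPM in 72Q neurons, against 61.7, 52.1, 92.3 and 92.7 CPM in 25Q neurons, and the lowest 72Q library stood above the highest 25Q library (log2 fold change 1.28 ± 0.15, adjusted p = 2.88e-05). Spint2, a serine protease inhibitor of the cell surface, averaged 39.1 ± 4.63 CPM in 72Q and 15.1 ± 2.49 CPM in 25Q neurons. Chpf2, an enzyme of chondroitin sulfate chains, averaged 62.8 ± 7.43 CPM in 72Q and 26.2 ± 3.86 CPM in 25Q neurons, and Sumf2, a protein of the sulfatase-modifying family, 71.5 ± 11.2 CPM in 72Q and 30.1 ± 1.66 CPM in 25Q neurons. Tpx2, a spindle assembly factor, averaged 31.7 ± 6.03 CPM in 72Q and 13.4 ± 0.609 CPM in 25Q neurons, and Phlda3, an Akt inhibitor and p53 target, 47.5 ± 13.0 CPM in 72Q and 19.4 ± 2.50 CPM in 25Q neurons.

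Proteasome genes were higher in 72Q neurons as a group. Of 46 tested members 36 rose and 0 fell, with a median log2 fold change of 0.34, against 0.03 for all genes tested. Their summed level was 3893 to 4451 CPM in 72Q and 3192 to 3621 CPM in 25Q neurons. The list's median was above 0 in each experiment, between 0.25 and 0.39. Psmd11, a subunit of the lid of the regulatory particle, had 101, 101, 107 and 112 CPM in 72Q neurons, against 55.7, 55.1, 64.6 and 66.2 CPM in 25Q neurons. No 72Q library reached down to the 25Q range (log2 fold change 0.81 ± 0.047, adjusted p = 8.94e-15). Psmd2, a scaffold of the base of that particle, had 399 ± 32.3 CPM in 72Q and 272 ± 13.7 CPM in 25Q neurons (log2 fold change 0.55 ± 0.044, adjusted p = 9.06e-12). Psma5, an alpha subunit of the core, had 10.7 ± 0.676 CPM in 72Q and 7.47 ± 0.669 CPM in 25Q neurons. The immunoproteasome subunit Psmb9, which interferon induces, showed a larger change at a low level, 5.09 ± 1.91 CPM in 72Q and 1.44 ± 0.358 CPM in 25Q neurons (log2 fold change 1.73 ± 0.23, adjusted p = 5e-07). Without Psmb8, Psmb9 and Psmb10, the 3 inducible subunits, 43 members were tested, 34 rose, and the median was 0.33. With the 25Q library of exp107 left out, 2 members of the list fell.

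Lysosomal and autophagy genes also leaned upward, by less. In the lysosome and V-ATPase list 25 of 46 rose and 4 fell, with a median of 0.15, and in the autophagy list 23 of 40 rose and 3 fell, with a median of 0.14. Ctsd, cathepsin D, the main aspartic protease of lysosomes, had 537, 633, 477 and 589.6 CPM in 72Q neurons, against 352, 342, 327 and 322 CPM in 25Q neurons. Its groups were clearly apart (log2 fold change 0.73 ± 0.051, adjusted p = 5.03e-13). Sqstm1, the p62 receptor that brings ubiquitinated cargo to autophagosomes, had 630.1, 662, 555 and 617 CPM in 72Q neurons, against 442, 427, 408 and 406 CPM in 25Q neurons (log2 fold change 0.55 ± 0.044, adjusted p = 1.05e-11). Tfeb, a transcriptional activator of lysosomal genes, averaged 4.40 ± 0.468 CPM in 72Q and 3.05 ± 0.449 CPM in 25Q neurons. Atg14, a subunit of the lipid kinase complex that starts autophagosomes, averaged 25.6 ± 4.59 CPM in 72Q and 18.7 ± 1.29 CPM in 25Q neurons. Against this direction Mcoln1, the lysosomal calcium channel, fell to 52.5 ± 4.76 CPM in 72Q, against 75.8 ± 3.65 CPM in 25Q neurons (log2 fold change -0.53 ± 0.053, adjusted p = 8.13e-10). Becn1, the partner of Atg14, fell to 51.6 ± 1.64 CPM in 72Q, against 61.3 ± 3.36 CPM in 25Q neurons (log2 fold change -0.25 ± 0.053, adjusted p = 0.0002), a call that was lost with library totals alone (-0.11, adjusted p = 0.0775). With library totals alone 30 autophagy genes rose and 0 fell, and 38 lysosomal genes rose and 1 fell.

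Genes of oxidant defence rose in most members. Of 40 tested genes, 26 rose and 3 fell, with a median log2 fold change of 0.24. Gsr, glutathione reductase, had 86.9, 76.0, 76.1 and 84.9 CPM in 72Q neurons, against 49.6, 43.8, 47.2 and 44.3 CPM in 25Q neurons without overlap (log2 fold change 0.81 ± 0.053, adjusted p = 1.55e-13). Prdx1, a peroxiredoxin, averaged 95.6 ± 15.6 CPM in 72Q and 56.4 ± 2.94 CPM in 25Q neurons (log2 fold change 0.75 ± 0.058, adjusted p = 4.36e-12), and Sesn2, a sestrin that restrains mTORC1 under stress, 115 ± 15.9 CPM in 72Q and 64.4 ± 8.93 CPM in 25Q neurons (log2 fold change 0.83 ± 0.074, adjusted p = 6.77e-09). Nqo1, a quinone reductase and classical Nrf2 target, was low but higher, 3.00 ± 0.65 CPM in 72Q and 1.43 ± 0.361 CPM in 25Q neurons. The 3 members that fell were G6pdx and Tkt, of the pentose phosphate pathway that supplies NADPH, and Cat, catalase, with log2 fold changes of -0.60, -0.23 and -0.28. Leaving out the 25Q library of exp107 raised that count to 5. In iron and copper handling 10 of 25 rose (6 without experiment exp109b) and 1 fell. Steap2, a metalloreductase, averaged 27.9 ± 3.98 CPM in 72Q and 13.4 ± 2.23 CPM in 25Q neurons (log2 fold change 1.05 ± 0.11, adjusted p = 5.64e-08) and Atp7a, a copper pump, 21.5 ± 2.48 CPM in 72Q and 14.4 ± 1.16 CPM in 25Q neurons. The member that fell was Tfrc, the transferrin receptor, averaging 128 ± 35.2 CPM in 72Q and 186 ± 66.1 CPM in 25Q neurons. Its groups overlapped, with exp108 high in both, and within each experiment 72Q was lower (log2 fold change -0.52 ± 0.065, adjusted p = 3.65e-07). Without a term for the experiment the adjusted p of Tfrc was 0.114.

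Calcium-dependent kinases, phosphatases and their partners had the lowest median of the 43 lists. Of 47 tested genes, 34 fell and 7 rose, with a median log2 fold change of -0.57, and 8 fell at least 2-fold. The summed level was 5638 to 7252 CPM in 72Q and 9864 to 10490 CPM in 25Q neurons. Camk2b, a subunit of the calcium/calmodulin kinase of synapses, had 552, 334, 528 and 357 CPM in 72Q neurons, against 1268, 1254, 1194 and 1164 CPM in 25Q neurons. The groups stood far apart (log2 fold change -1.49 ± 0.1, adjusted p = 8.38e-08), with exp108 and exp109b lowest. Nos1, the neuronal nitric oxide synthase, averaged 26.8 ± 11.9 CPM in 72Q and 93.3 ± 18.2 CPM in 25Q neurons, and Itpka, an inositol trisphosphate kinase of dendritic spines, 6.66 ± 1.17 CPM in 72Q and 27.3 ± 3.13 CPM in 25Q neurons (log2 fold change -2.02 ± 0.16, adjusted p = 3.86e-08). Rasgrp1, a calcium-responsive Ras activator, averaged 25.1 ± 7.68 CPM in 72Q and 58.2 ± 3.32 CPM in 25Q neurons. The direction was not uniform: Plcb4, a phospholipase C, rose to 38.9 ± 2.34 CPM in 72Q, against 19.8 ± 1.66 CPM in 25Q neurons (log2 fold change 0.97 ± 0.071, adjusted p = 1.37e-12), Dgkb, a diacylglycerol kinase, to 44.3 ± 3.01 CPM in 72Q, against 24.5 ± 0.25 CPM in 25Q neurons, and Rcan3, a calcineurin regulator, to 109 ± 9.95 CPM in 72Q, against 64.5 ± 3.83 CPM in 25Q neurons.

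Cyclic AMP signalling genes were split. Of 63 genes, 29 fell and 14 rose, with a median of -0.08 (-0.12 without the 72Q library of exp109a). With library totals alone 23 fell and 25 rose, and the median was 0.06. Adcy1, a calmodulin-stimulated adenylyl cyclase of cortex, had 1057 ± 303 CPM in 72Q and 2001 ± 180.5 CPM in 25Q neurons (log2 fold change -0.96 ± 0.08, adjusted p = 3.43e-08), and Adcy8, another cyclase of that kind, 35.3 ± 4.57 CPM in 72Q and 77.9 ± 6.00 CPM in 25Q neurons. The calmodulin-dependent phosphodiesterases moved apart: Pde1a fell to 48.4 ± 1.46 CPM in 72Q, against 107 ± 9.95 CPM in 25Q neurons (log2 fold change -1.14 ± 0.057, adjusted p = 4.85e-16), and Pde1c rose to 7.07 ± 0.457 CPM in 72Q, against 2.88 ± 0.481 CPM in 25Q neurons (log2 fold change 1.26 ± 0.13, adjusted p = 1.68e-09). Among cholinergic, adrenergic and purinergic receptors 12 of 31 fell and 3 rose. Chrm1, the muscarinic M1 receptor of cortical neurons, had 83.5, 52.9, 77.4 and 59.3 CPM in 72Q neurons, against 174, 169.6, 192 and 185 CPM in 25Q neurons with no overlap (log2 fold change -1.42 ± 0.079, adjusted p = 5.43e-11). Chrm3 averaged 15.3 ± 4.36 CPM in 72Q and 37.0 ± 2.80 CPM in 25Q neurons, Adrb1, a beta-adrenergic receptor, 5.03 ± 1.14 CPM in 72Q and 11.8 ± 1.32 CPM in 25Q neurons, and Adora1, the A1 adenosine receptor, 119.9 ± 21.5 CPM in 72Q and 216 ± 18.1 CPM in 25Q neurons. Chrnb2, a nicotinic subunit, rose to 167 ± 13.0 CPM in 72Q, against 125 ± 11.0 CPM in 25Q neurons, and Adra1b, an alpha-adrenergic receptor, to 10.6 ± 3.06 CPM in 72Q, against 5.53 ± 1.73 CPM in 25Q neurons.

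Adhesion genes of synapses and cell contacts mostly fell. In the list of trans-synaptic adhesion proteins 42 of 55 fell and 5 rose, with a median of -0.38. Lrrtm1, a postsynaptic leucine-rich repeat protein of excitatory synapses, had 45.1, 35.2, 46.9 and 37.4 CPM in 72Q neurons, against 144, 130.0, 136 and 138 CPM in 25Q neurons. Both groups were tight and far apart (log2 fold change -1.74 ± 0.054, adjusted p = 1.66e-20). Mdga1, which binds neuroligins and limits their contact with neurexins, averaged 36.5 ± 9.42 CPM in 72Q and 110.4 ± 16.9 CPM in 25Q neurons, and Tenm1, a teneurin, 162 ± 39.7 CPM in 72Q and 393 ± 82.4 CPM in 25Q neurons. Cbln4, a secreted synaptic organiser, averaged 4.12 ± 1.09 CPM in 72Q and 9.79 ± 2.92 CPM in 25Q neurons. Nlgn2, the neuroligin of inhibitory synapses, rose slightly, to 683 ± 17.9 CPM in 72Q, against 559 ± 66.5 CPM in 25Q neurons (log2 fold change 0.30 ± 0.052, adjusted p = 1.62e-05). Among classical and non-clustered cadherins 24 of 36 fell and 3 rose (1 without experiment exp108), with a median of -0.47. Cdh6, a cadherin of cortical areas and circuits, had 23.0, 13.0, 20.1 and 16.5 CPM in 72Q neurons, against 66.0, 47.5, 57.5 and 53.5 CPM in 25Q neurons (log2 fold change -1.64 ± 0.067, adjusted p = 4.36e-18). Cdh8 averaged 48.6 ± 9.24 CPM in 72Q and 126 ± 14.4 CPM in 25Q neurons, and Fat4, a giant atypical cadherin, 131 ± 39.1 CPM in 72Q and 349 ± 86.9 CPM in 25Q neurons. Clstn2, a calsyntenin, averaged 70.0 ± 23.6 CPM in 72Q and 159.9 ± 28.9 CPM in 25Q neurons (log2 fold change -1.23 ± 0.089, adjusted p = 1.22e-08), while its relative Clstn1 was level, averaging 1594 ± 55.4 CPM in 72Q and 1593 ± 128 CPM in 25Q neurons (log2 fold change 0.00 ± 0.043, adjusted p = 0.951).

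**Figure D2:**
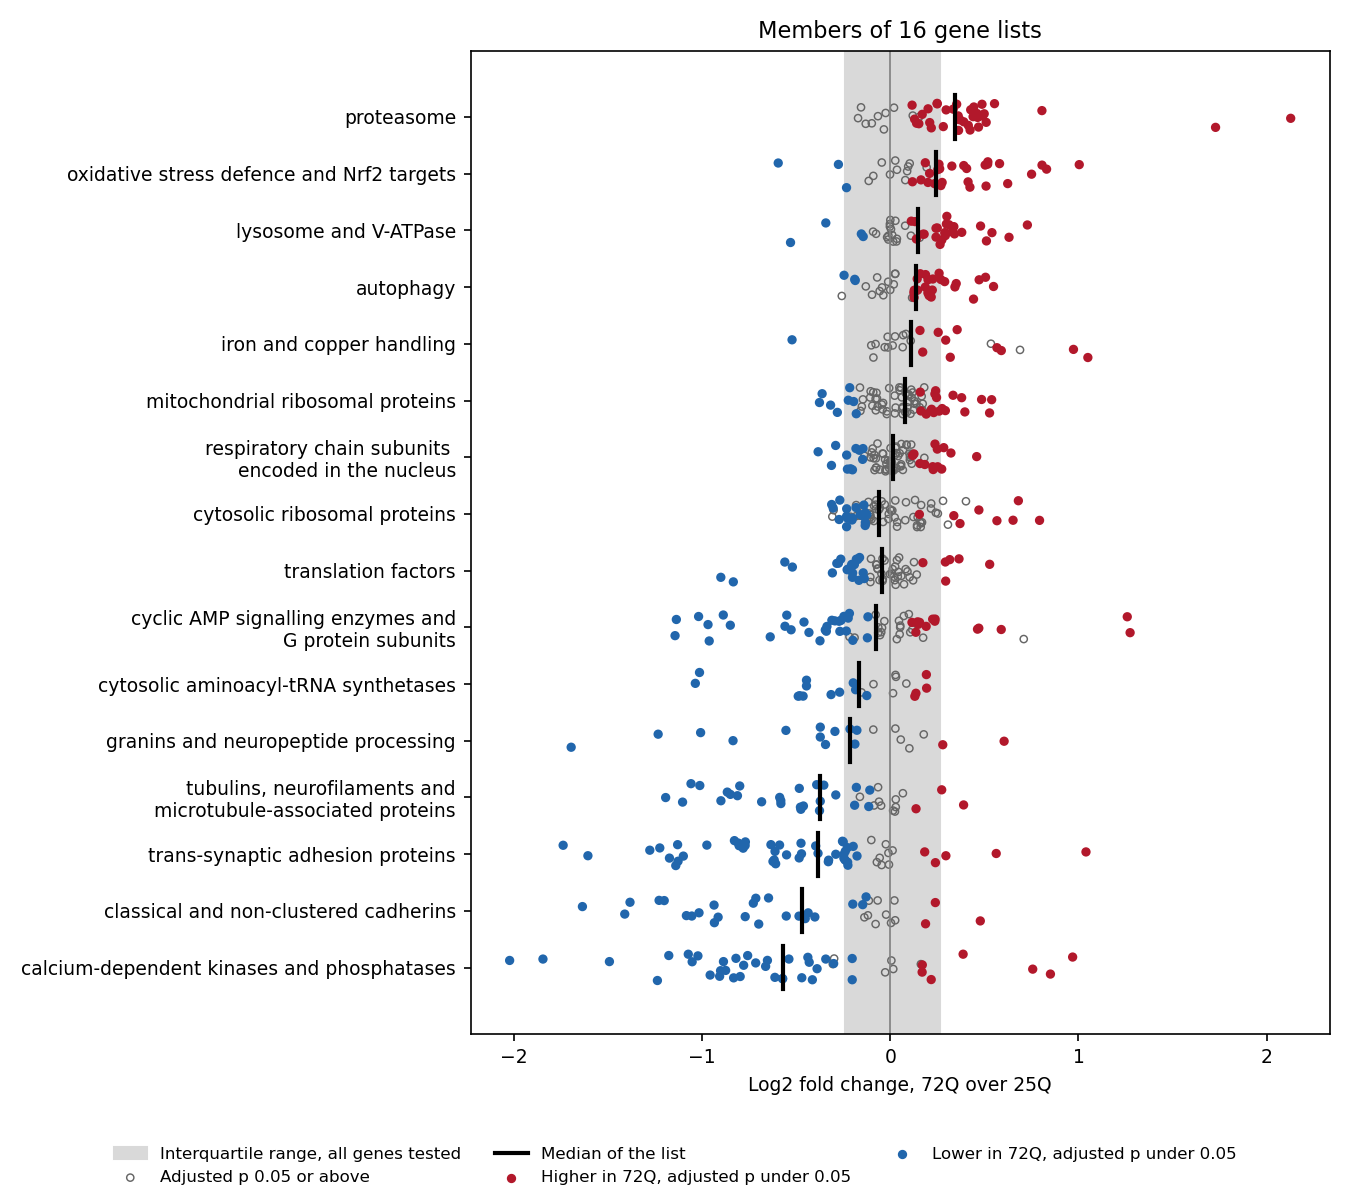
Log2 fold change (72Q over 25Q) of every tested member of 16 gene lists, 1 point a gene, with the list's median as a bar and the interquartile range of all genes tested as a grey band. Filled points passed an adjusted p under 0.05 (red higher, blue lower), open points did not. Proteasome members sit mostly above 0 (median 0.34), and calcium-dependent kinases, trans-synaptic adhesion genes and cadherins sit mostly below it (medians -0.57, -0.38 and -0.47).

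Peptide secretion and transmitter transport followed in part. Of 19 granin and neuropeptide processing genes 12 fell and 2 rose, with a median of -0.21. Pcsk2, a convertase of dense core vesicles, averaged 92.6 ± 15.0 CPM in 72Q and 186 ± 27.2 CPM in 25Q neurons (log2 fold change -1.01 ± 0.06, adjusted p = 1.29e-13), Scg2, secretogranin II, 81.3 ± 11.4 CPM in 72Q and 144 ± 10.2 CPM in 25Q neurons, and Cadps2, a priming factor of those vesicles, 13.4 ± 2.57 CPM in 72Q and 31.5 ± 2.73 CPM in 25Q neurons. The sister convertase Pcsk1 rose to 17.7 ± 2.86 CPM in 72Q, against 11.5 ± 1.53 CPM in 25Q neurons, and its inhibitor Pcsk1n to 602 ± 25.8 CPM in 72Q, against 497 ± 40.2 CPM in 25Q neurons. Of 40 pumps and transporters 15 were lower and 14 higher, with a median of -0.04 (12 and 19, and 0.10, with library totals alone, and a median of 0.01 without the 25Q library of exp108). Slc17a7, the vesicular glutamate transporter of cortical neurons, had 326, 212, 286 and 225 CPM in 72Q neurons, against 552, 555, 504 and 534 CPM in 25Q neurons (log2 fold change -1.05 ± 0.083, adjusted p = 4.06e-08), and Slc6a7, a brain proline transporter, averaged 36.2 ± 10.3 CPM in 72Q and 99.1 ± 4.29 CPM in 25Q neurons. Slc12a7, a potassium chloride cotransporter, rose to 8.66 ± 2.37 CPM in 72Q, against 5.16 ± 1.15 CPM in 25Q neurons.

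Cytoskeletal genes fell most at the tubulins. In the list of tubulins, neurofilaments and microtubule-associated proteins 26 of 39 fell and 3 rose, with a median of -0.37 and a summed level of 27360 to 33790 CPM in 72Q and 41180 to 45780 CPM in 25Q neurons. Tuba1a had 1347, 1255, 1213 and 812 CPM in 72Q neurons, against 2463, 3266, 2025 and 1939 CPM in 25Q neurons (log2 fold change -1.06 ± 0.085, adjusted p = 4.69e-08). Tubb2b averaged 688 ± 129 CPM in 72Q and 1470.0 ± 219 CPM in 25Q neurons, Tubb3 1193 ± 216 CPM in 72Q and 2200.1 ± 572 CPM in 25Q neurons, and Stmn1, stathmin, which binds free tubulin, 48.8 ± 7.25 CPM in 72Q and 98.1 ± 9.67 CPM in 25Q neurons. Exp109b held the lowest 72Q value of Tuba1a and Tubb2b. Tubulin genes are near-identical to each other and have processed copies, and the labels do not say how reads that fit several places were counted, so the split between members is uncertain. Map1a was among the 3 that rose. Of 40 transport motors and adaptors 15 were higher and 13 lower (18 and 8 with library totals alone). Besides Hap1, the dynein light chain Dynll2 rose to 349 ± 44.5 CPM in 72Q, against 259 ± 30.5 CPM in 25Q neurons and the dynactin subunit Dctn6 to 54.7 ± 6.58 CPM in 72Q, against 42.4 ± 3.75 CPM in 25Q neurons. The adaptors Bicd1 and Bicd2, which couple cargo to dynein, moved apart, with 109 ± 3.66 CPM in 72Q and 86.0 ± 5.93 CPM in 25Q neurons for Bicd1 and 90.9 ± 15.6 CPM in 72Q and 125 ± 11.1 CPM in 25Q neurons for Bicd2 (log2 fold change 0.35 ± 0.044, adjusted p = 7.98e-08 and log2 fold change -0.46 ± 0.056, adjusted p = 3.55e-08). Kif21b, a kinesin, fell to 842 ± 183 CPM in 72Q, against 1349 ± 216 CPM in 25Q neurons, and the kinesin light chains Klc1 and Klc2 had log2 fold changes of -0.37 and -0.39.

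Most genes of protein synthesis moved little. Cytosolic ribosomal protein genes had 18 of 80 lower, 8 higher and a median of -0.06, and none of the 80 reached 2-fold. With upper-quartile factors 13 rose and 8 fell, and with library totals alone 18 rose and 3 fell at a median of 0.08, so the direction is set by the scaling. Without experiment exp107 the count of lower genes was 10, and without exp108 that of higher genes was 5. Rpl13a averaged 157 ± 8.35 CPM in 72Q and 191 ± 17.5 CPM in 25Q neurons and Rplp1 321 ± 22.1 CPM in 72Q and 399 ± 55.9 CPM in 25Q neurons, and Rps15a went the other way, to 70.7 ± 16.7 CPM in 72Q, against 40.2 ± 3.38 CPM in 25Q neurons. Genes of this family have many processed copies, which makes single members uncertain. Translation factors had 20 of 58 lower and 6 higher, with a median of -0.04, but 23 higher, 8 lower and a median of 0.09 with library totals alone. Eef2k, the calmodulin-dependent kinase of elongation factor 2, fell, with 56.0, 42.1, 61.3 and 51.5 CPM in 72Q neurons, against 101, 99.3, 96.4 and 95.1 CPM in 25Q neurons (log2 fold change -0.90 ± 0.062, adjusted p = 8.93e-13). Eif4ebp1, which holds back cap-dependent initiation, fell to 16.2 ± 2.13 CPM in 72Q, against 23.9 ± 1.33 CPM in 25Q neurons (log2 fold change -0.56 ± 0.083, adjusted p = 1.04e-06). Of 22 cytosolic aminoacyl-tRNA synthetases 12 fell and 4 rose, with a median of -0.17 (9 fell and 8 rose, with a median of -0.03, with library totals alone). Vars, for valine, had 48.7, 43.0, 58.0 and 46.8 CPM in 72Q neurons, against 99.5, 90.2, 103 and 109.9 CPM in 25Q neurons (log2 fold change -1.04 ± 0.059, adjusted p = 6.73e-15). Cars, for cysteine, averaged 56.0 ± 5.87 CPM in 72Q and 113 ± 6.45 CPM in 25Q neurons (log2 fold change -1.01 ± 0.06, adjusted p = 2.43e-14), Lars, for leucine, 87.8 ± 9.16 CPM in 72Q and 123 ± 3.55 CPM in 25Q neurons, and Qars, for glutamine, 46.2 ± 4.03 CPM in 72Q and 64.5 ± 4.49 CPM in 25Q neurons. Of the 4 that rose, Hars, for histidine, had the highest log2 fold change, 0.19, and without experiment exp109b 1 rose.

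Nucleocytoplasmic transport, which mutant huntingtin is known to disturb in other models, had 15 of 57 genes higher and 11 lower, with a median of -0.00 (30 higher, 8 lower and a median of 0.13 with library totals alone). Without single libraries that median ran between -0.03 and 0.01. Ipo4, an importin of ribosomal proteins and histones, had 57.2, 45.5, 60.0 and 46.7 CPM in 72Q neurons, against 114, 111, 110.3 and 107 CPM in 25Q neurons, without overlap (log2 fold change -1.09 ± 0.057, adjusted p = 1.07e-15). Cse1l, which returns importin alpha to the cytoplasm, averaged 50.6 ± 7.01 CPM in 72Q and 85.7 ± 5.43 CPM in 25Q neurons (log2 fold change -0.77 ± 0.078, adjusted p = 6.21e-08). Pom121, a membrane anchor of the pore, rose to 79.6 ± 10.4 CPM in 72Q, against 56.0 ± 9.15 CPM in 25Q neurons, and Nup98, a pore protein with phenylalanine-glycine repeats, to 41.5 ± 2.69 CPM in 72Q, against 31.9 ± 1.58 CPM in 25Q neurons.

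Nuclear-encoded respiratory chain subunits had 13 of 76 higher and 11 lower, a median of 0.01 (between -0.00 and 0.03 without single libraries), and summed levels of 8219 to 10380 CPM in 72Q and 8091 to 10370 CPM in 25Q neurons. Sdha, the flavoprotein of complex II, had 236, 251, 238 and 248 CPM in 72Q neurons, against 201, 199, 201 and 198 CPM in 25Q neurons. The change was small but clear of the replicate spread (log2 fold change 0.28 ± 0.045, adjusted p = 3.97e-06). Atp5g1, a subunit of the ATP synthase ring, had 16.5, 22.7, 15.9 and 16.9 CPM in 72Q neurons, against 12.2, 15.8, 11.3 and 12.9 CPM in 25Q neurons. Cyc1, cytochrome c1, averaged 83.8 ± 3.07 CPM in 72Q and 105 ± 13.4 CPM in 25Q neurons. Mitochondrial ribosomal proteins had 18 of 75 higher and 8 lower, and citric acid cycle genes 9 of 26 higher and 6 lower. These counts lean on the scaling: with library totals alone 43 respiratory chain, 45 mitochondrial ribosomal and 17 citric acid cycle genes were higher, and 1, 3 and 2 lower. Glycolysis and lactate genes had 12 of 24 lower and 6 higher, with a median of -0.12. With library totals alone 5 fell and 11 rose at a median of 0.01, and without the 25Q library of exp109b 3 rose. Eno2, the neuronal enolase, averaged 342 ± 20.9 CPM in 72Q and 501 ± 39.6 CPM in 25Q neurons (log2 fold change -0.55 ± 0.045, adjusted p = 1.21e-11), and Slc16a7, the neuronal lactate transporter, 51.1 ± 6.48 CPM in 72Q and 78.4 ± 4.28 CPM in 25Q neurons. Pfkl and Pfkp, subunits of phosphofructokinase, rose to 251 ± 29.3 CPM in 72Q, against 191 ± 29.7 CPM in 25Q neurons for Pfkl and 292 ± 36.9 CPM in 72Q and 233 ± 35.3 CPM in 25Q neurons for Pfkp. In fatty acid and phospholipid synthesis 16 of 46 fell and 14 rose (9 and 20 with library totals alone), with Fads2, a desaturase, averaging 545 ± 69.7 CPM in 72Q and 741 ± 53.2 CPM in 25Q neurons, and Acacb, the acetyl-CoA carboxylase of the mitochondrial surface, averaging 4.10 ± 0.757 CPM in 72Q and 1.91 ± 0.35 CPM in 25Q neurons.

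Signalling pathways of development had members on both sides. In the Wnt list 17 of 54 fell and 14 rose, with a median of -0.03 (12 and 20, and 0.10, with library totals alone). Without single libraries that median ran between -0.06 and 0.03, and it was above 0 without either library of exp109b or the 72Q library of exp108. Among ligands and agonists, Wnt7b, a ligand of cortical neurons, had 61.9, 49.4, 76.3 and 63.8 CPM in 72Q neurons, against 166, 126, 180.0 and 176 CPM in 25Q neurons (log2 fold change -1.37 ± 0.082, adjusted p = 2.39e-10), and Rspo2, an R-spondin agonist, averaged 3.74 ± 0.87 CPM in 72Q and 12.1 ± 1.77 CPM in 25Q neurons, Rspo3 6.43 ± 1.03 CPM in 72Q and 14.1 ± 2.38 CPM in 25Q neurons and Wnt9a 6.24 ± 2.59 CPM in 72Q and 15.5 ± 1.17 CPM in 25Q neurons. R-spondin receptors moved the other way at low levels: Lgr6 averaged 3.20 ± 0.949 CPM in 72Q and 0.914 ± 0.427 CPM in 25Q neurons and Lgr5 3.14 ± 0.741 CPM in 72Q and 1.68 ± 0.488 CPM in 25Q neurons (log2 fold change 1.67 ± 0.27, adjusted p = 2.82e-06 and log2 fold change 0.83 ± 0.22, adjusted p = 0.00134). Fzd6, a Frizzled receptor, rose to 4.40 ± 0.746 CPM in 72Q, against 2.50 ± 0.268 CPM in 25Q neurons. In the Hedgehog list 6 of 20 rose and 4 fell (10 and 2 with library totals alone). Smo, the transducer, averaged 33.8 ± 4.03 CPM in 72Q and 25.2 ± 2.93 CPM in 25Q neurons, and Ptch1, the receptor and a target of the pathway, 57.6 ± 1.89 CPM in 72Q and 41.7 ± 2.80 CPM in 25Q neurons. Gli1, the target most used as a readout, was low and overlapped between groups, 1.80 ± 0.872 CPM in 72Q and 0.76 ± 0.377 CPM in 25Q neurons (log2 fold change 1.12 ± 0.27, adjusted p = 0.000238). Boc, a coreceptor, had 23.5, 21.1, 20.9 and 17.0 CPM in 72Q neurons, against 54.3, 46.6, 50.7 and 46.9 CPM in 25Q neurons (log2 fold change -1.27 ± 0.066, adjusted p = 8.5e-16).

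In the FGF list 9 of 23 fell and 6 rose, with a median of -0.12 (7 and 8, and 0.01, with library totals alone). Without single libraries that median ran between -0.18, without the 25Q library of exp109a, and 0.00, without that of exp108, and with no filter it was 0.02. The 3 leucine-rich Flrt proteins, which bind FGF receptors and latrophilins, all fell: Flrt2 averaged 37.5 ± 6.21 CPM in 72Q and 98.6 ± 9.22 CPM in 25Q neurons, Flrt3 28.9 ± 1.99 CPM in 72Q and 63.9 ± 8.42 CPM in 25Q neurons and Flrt1 18.6 ± 4.17 CPM in 72Q and 28.1 ± 4.88 CPM in 25Q neurons. Fgf1, a ligand, rose to 44.9 ± 2.82 CPM in 72Q, against 28.5 ± 2.95 CPM in 25Q neurons (log2 fold change 0.66 ± 0.058, adjusted p = 5.99e-11). In the BMP and TGF-beta list 16 of 40 fell and 8 rose, with a median of -0.09 (15 and 14, and 0.03, with library totals alone). That median was -0.25 in the 8 libraries fitted alone, and between -0.15, without the 72Q library of exp107, and -0.05, without the 25Q library of exp109b, with single libraries left out. The ligands Bmp2 and Bmp3 averaged 3.03 ± 1.28 CPM in 72Q and 6.38 ± 0.479 CPM in 25Q neurons for Bmp2 and 5.30 ± 1.70 CPM in 72Q and 11.6 ± 1.41 CPM in 25Q neurons for Bmp3, the antagonist Nog 2.85 ± 0.596 CPM in 72Q and 4.91 ± 0.585 CPM in 25Q neurons, and the intracellular transducers Smad5 and Smad9 rose, to 65.9 ± 1.72 CPM in 72Q, against 49.6 ± 2.40 CPM in 25Q neurons for Smad5 and 21.2 ± 3.12 CPM in 72Q and 12.5 ± 1.01 CPM in 25Q neurons for Smad9. The Notch list had 8 of 27 lower and 6 higher, with a median of -0.09 (4 and 10, and 0.05, with library totals alone). Hes6, a bHLH factor that promotes neuronal differentiation, averaged 22.2 ± 2.09 CPM in 72Q and 35.3 ± 3.80 CPM in 25Q neurons, and Dner, a neuronal transmembrane protein related to Notch ligands, 560.4 ± 80.2 CPM in 72Q and 763 ± 58.3 CPM in 25Q neurons.

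Circadian and inflammatory genes each held a few large changes. In the clock list 8 of 22 fell and 6 rose (7 and 11 with library totals alone). Rorb, an orphan receptor that also marks layer 4 of cortex, had 117, 66.8, 89.2 and 75.4 CPM in 72Q neurons, against 251, 191, 197 and 192 CPM in 25Q neurons (log2 fold change -1.27 ± 0.056, adjusted p = 5.64e-17). Nfil3, a repressor of D-box genes, averaged 13.2 ± 2.33 CPM in 72Q and 26.4 ± 0.707 CPM in 25Q neurons, and Npas2, a partner of Bmal1, 14.5 ± 2.57 CPM in 72Q and 25.7 ± 1.96 CPM in 25Q neurons. Cry1, a core repressor, rose to 24.9 ± 2.37 CPM in 72Q, against 14.9 ± 0.959 CPM in 25Q neurons (log2 fold change 0.74 ± 0.075, adjusted p = 1.09e-09). In the list of NF-kB, cytokines and chemokines 10 of 25 tested genes rose and 4 fell, with a median of 0.26, and 22 of the 47 listed genes were too low to test. Myd88, the Toll receptor adaptor, averaged 4.09 ± 0.283 CPM in 72Q and 2.21 ± 0.372 CPM in 25Q neurons and Nfkb2, an NF-kB subunit, 6.10 ± 1.22 CPM in 72Q and 3.88 ± 0.905 CPM in 25Q neurons, while Ptgs2, the inducible cyclooxygenase, averaged 0.514 ± 0.313 CPM in 72Q and 1.59 ± 0.517 CPM in 25Q neurons. Mpeg1, a pore-forming protein of macrophages, fell to 1.68 ± 0.819 CPM in 72Q, against 9.49 ± 2.77 CPM in 25Q neurons (log2 fold change -2.44 ± 0.17, adjusted p = 3.44e-13), in cultures in which Cx3cr1, a defining microglial gene, averaged 0.178 CPM in 72Q and 0.0749 CPM in 25Q neurons.

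Chromatin regulators had members on both sides, in shares near those of all genes tested (29.3% higher and 27.8% lower). Of 31 histone deacetylases and acetyltransferases 11 rose and 8 fell (18 and 4 with library totals alone). Hdac9, a class IIa deacetylase, had 47.0, 37.6, 52.1 and 34.9 CPM in 72Q neurons, against 109.5, 107, 127 and 133 CPM in 25Q neurons (log2 fold change -1.49 ± 0.16, adjusted p = 2.09e-05), Hdac5, of the same class, averaged 125 ± 13.2 CPM in 72Q and 207 ± 6.52 CPM in 25Q neurons (log2 fold change -0.74 ± 0.052, adjusted p = 5.36e-13), and Hdac3, of the NCoR complexes, 58.9 ± 1.88 CPM in 72Q and 87.6 ± 5.95 CPM in 25Q neurons. Hdac7, another class IIa member, rose to 14.6 ± 2.49 CPM in 72Q, against 8.83 ± 2.31 CPM in 25Q neurons (log2 fold change 0.72 ± 0.1, adjusted p = 2.93e-07). On the acetyl side, Ep300, an acetyltransferase that polyglutamine fragments bind, rose to 154 ± 15.9 CPM in 72Q, against 115 ± 19.0 CPM in 25Q neurons, and Taf1, a TFIID subunit, to 211 ± 15.9 CPM in 72Q, against 148 ± 11.3 CPM in 25Q neurons. In the list of BAF remodelling and trithorax genes 13 of 42 fell and 10 rose (7 and 22 with library totals alone). The members that fell most are subunits of the neuronal BAF complex: Actl6b averaged 68.4 ± 11.6 CPM in 72Q and 127 ± 2.81 CPM in 25Q neurons (log2 fold change -0.91 ± 0.059, adjusted p = 1.76e-13), Dpf1 77.7 ± 7.39 CPM in 72Q and 124 ± 2.57 CPM in 25Q neurons and Dpf3 7.32 ± 1.75 CPM in 72Q and 11.9 ± 1.78 CPM in 25Q neurons. The methyltransferases Kmt2d and Setd1a and the demethylase Kdm5a rose, with log2 fold changes of 0.58, 0.52 and 0.49.

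Factors of neuronal differentiation were split as well. Of 13 tested SOX genes 6 rose and 4 fell. Sox11 and Sox4, factors of newborn neurons, averaged 119.8 ± 22.6 CPM in 72Q and 256 ± 34.9 CPM in 25Q neurons for Sox11 and 147 ± 24.5 CPM in 72Q and 234 ± 26.0 CPM in 25Q neurons for Sox4 (log2 fold change -1.10 ± 0.056, adjusted p = 1.08e-15 and log2 fold change -0.68 ± 0.05, adjusted p = 1.38e-12). Sox1 and Sox3, of neural progenitors, rose to 31.8 ± 2.61 CPM in 72Q, against 22.7 ± 3.13 CPM in 25Q neurons for Sox1 and 23.9 ± 4.26 CPM in 72Q and 16.2 ± 3.14 CPM in 25Q neurons for Sox3. Progenitor markers summed higher in 72Q as given above, and their part in these values was not tested. Of 17 proneural bHLH and ZIC genes 9 rose and 5 fell. Neurod6 and Neurod1, factors of excitatory neurons, averaged 60.9 ± 14.4 CPM in 72Q and 182 ± 12.3 CPM in 25Q neurons for Neurod6 and 10.6 ± 1.46 CPM in 72Q and 22.2 ± 2.49 CPM in 25Q neurons for Neurod1, and Zic1 and Zic2 rose, to 4.80 ± 0.356 CPM in 72Q, against 1.72 ± 0.233 CPM in 25Q neurons for Zic1 and 12.6 ± 1.22 CPM in 72Q and 5.52 ± 0.474 CPM in 25Q neurons for Zic2 (log2 fold change 1.41 ± 0.17, adjusted p = 1.1e-08 and log2 fold change 1.17 ± 0.11, adjusted p = 3.03e-10). Of 23 KLF and SP genes 9 fell and 7 rose. Klf6 had 66.0, 56.6, 63.9 and 50.2 CPM in 72Q neurons, against 195, 198, 151 and 164 CPM in 25Q neurons (log2 fold change -1.58 ± 0.069, adjusted p = 1.33e-14), Klf7, which like Klf6 promotes axon growth, averaged 118 ± 25.3 CPM in 72Q and 245 ± 28.9 CPM in 25Q neurons, and Klf5 6.62 ± 1.94 CPM in 72Q and 27.0 ± 1.76 CPM in 25Q neurons (log2 fold change -2.03 ± 0.11, adjusted p = 1.2e-14), while Sp4, a neuronal SP factor, rose to 90.1 ± 8.30 CPM in 72Q, against 61.4 ± 5.26 CPM in 25Q neurons.

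Several genes that modify the onset of Huntington disease in patients were measured. In the list of mismatch repair and onset modifier genes 8 of 26 rose and 3 fell, with a median of 0.02, against 0.03 for all genes tested (11 and 0, and 0.16, with library totals alone). The median was -0.01 without the 25Q library of exp108. Pms1, a MutL homologue, had 8.72, 9.40, 9.21 and 7.74 CPM in 72Q neurons, against 4.87, 5.56, 5.03 and 3.94 CPM in 25Q neurons. Its groups did not overlap (log2 fold change 0.84 ± 0.12, adjusted p = 2.64e-07). Msh6, which recognises mismatches, averaged 43.7 ± 2.05 CPM in 72Q and 31.7 ± 2.57 CPM in 25Q neurons (log2 fold change 0.46 ± 0.061, adjusted p = 1.61e-07). Of the 3 members that fell, Ogg1, a glycosylase of oxidised guanine, had the lowest log2 fold change, -0.33. Without the 25Q library of exp108 that count was 1 and Ogg1 was not called (-0.28, adjusted p = 0.0631), with library totals alone its adjusted p was 0.135, without the 72Q library of exp109b its adjusted p was 0.0571, and without the 25Q library of exp107 the count was 5.

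**Figure D3:**
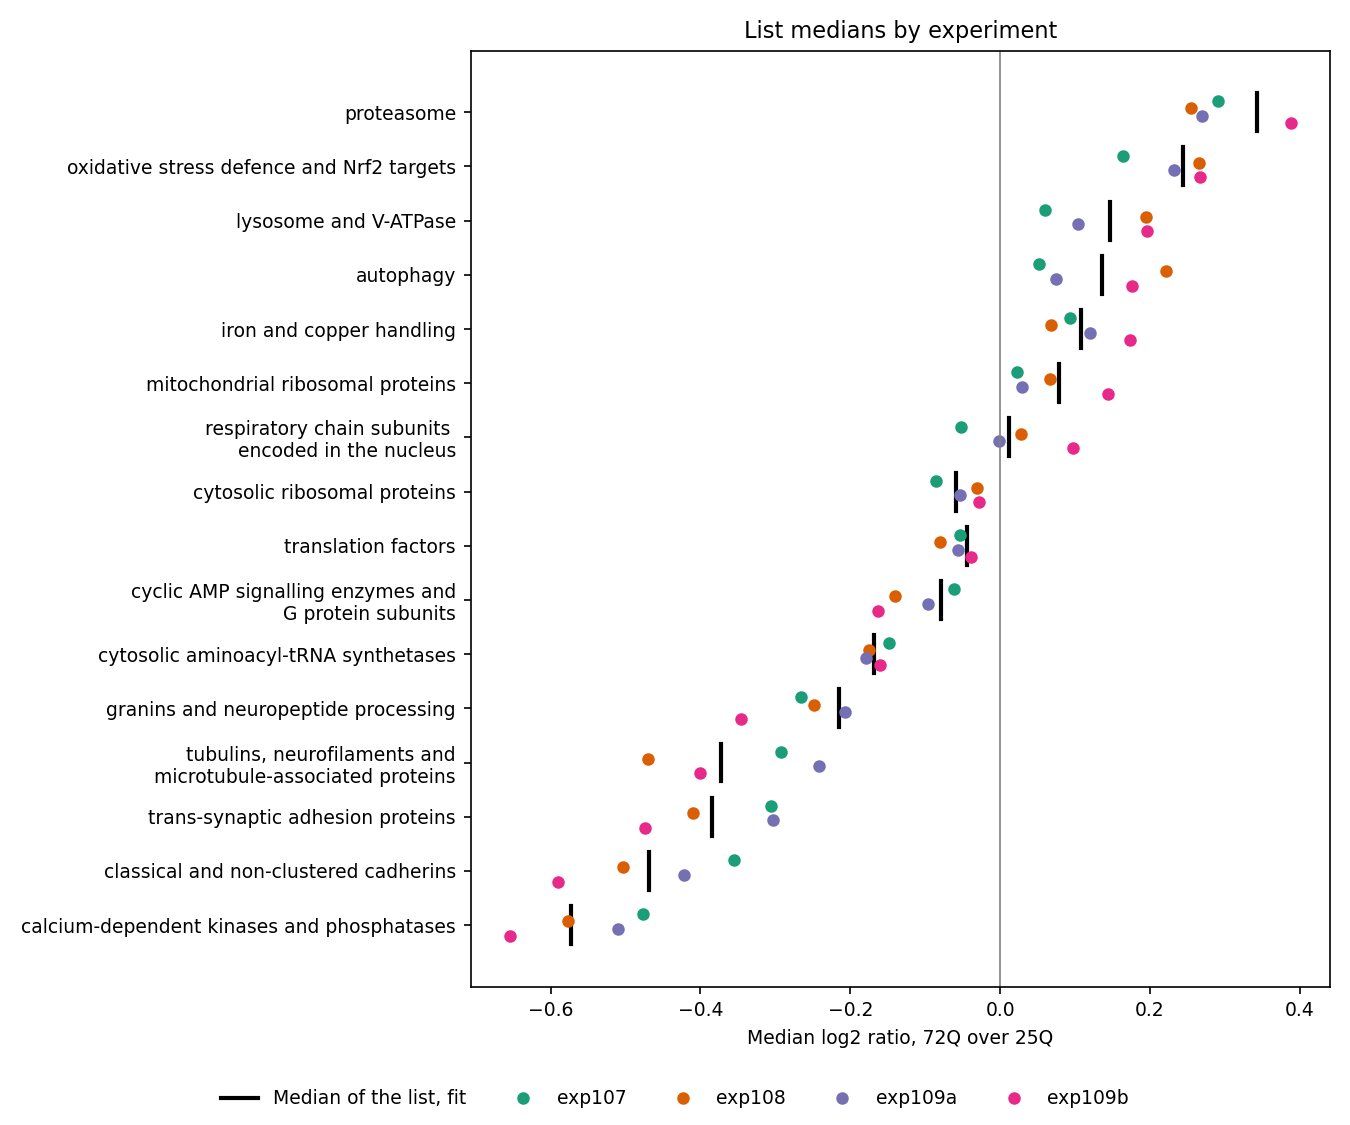
Median log2 ratio (72Q over 25Q) of the tested members of 16 gene lists in each of the 4 experiments, 1 point an experiment, with the list's median fold change from the fit as a bar. The proteasome list lies above 0 in all 4 experiments, between 0.25 and 0.39, and the calcium-dependent kinases below it, between -0.65 and -0.48.

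Genes of tissues outside the nervous system gave no common direction, although transcription factors of those tissues appeared. Of 99 listed keratins, claudins and desmosomal genes 28 could be tested, and 12 rose and 10 fell. With the 8 libraries filtered and fitted alone, 23 were tested, and 8 rose and 10 fell. Dsp, desmoplakin, averaged 6.69 ± 2.08 CPM in 72Q and 1.74 ± 0.711 CPM in 25Q neurons (log2 fold change 1.88 ± 0.15, adjusted p = 7.37e-12). Perp, a desmosomal p53 target, had 16.6, 14.1, 13.7 and 16.0 CPM in 72Q neurons, against 8.51, 6.60, 4.85 and 6.29 CPM in 25Q neurons (log2 fold change 1.19 ± 0.1, adjusted p = 2.67e-11), while Jup, plakoglobin, fell to 63.7 ± 14.0 CPM in 72Q, against 128 ± 12.9 CPM in 25Q neurons and Krt77, a keratin, to 3.61 ± 0.735 CPM in 72Q, against 8.52 ± 0.452 CPM in 25Q neurons. Of 49 striated muscle genes 23 were tested, and 10 fell and 4 rose (2 without experiment exp108 or exp109b). Myh3, the embryonic myosin heavy chain, averaged 1.13 ± 0.67 CPM in 72Q and 5.69 ± 1.15 CPM in 25Q neurons (log2 fold change -2.26 ± 0.21, adjusted p = 5.27e-11) and Ryr1, the calcium release channel of skeletal muscle, 4.85 ± 1.70 CPM in 72Q and 9.15 ± 1.47 CPM in 25Q neurons. Of 44 blood cell genes 12 were tested, with 6 lower and 5 higher (3 higher without the 72Q library of exp107 or the 25Q library of exp109b). With the 8 libraries filtered and fitted alone, 10 were tested, with 6 lower and 3 higher. Kit, a receptor kinase that neurons also express, fell to 41.5 ± 9.86 CPM in 72Q, against 100.2 ± 11.7 CPM in 25Q neurons. Of 41 liver and plasma protein genes 3 were tested, and of 48 germline genes 10, with 1 higher in each list and 1 and 2 lower.

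More genes had counts in 72Q libraries alone than in 25Q libraries alone. At most 3 summed counts over the 4 libraries of 25Q and at least 20 over those of 72Q were found for 84 genes, and the reverse for 2 genes. Counts of 0 in all 25Q libraries with at least 1 count in every 72Q library were found for 85 genes, and the reverse for 16. The 6 genes with most 72Q counts and none in 25Q, leaving out predicted genes, were Tbx20, Pou4f2, Gata3, Hoxc4, Hoxd9 and Isl1, all transcription factors of heart, sensory neurons, blood, axial or motor neuron development. Tbx20 had 32, 15, 33 and 39 counts in 72Q libraries and 0 in each 25Q library, which makes it at least 36.9-fold higher against a floor of 3 counts over the 25Q group. Pou4f2 had 15, 22, 25 and 37 counts in 72Q libraries and 0 in 25Q, at least 30.7-fold. Isl1 had 9, 9, 15 and 27 counts in 72Q libraries and 0 in 25Q, at least 18.6-fold. These are few reads among 16589889 or more a library, and a bound covers counting error only. On the other side, Prame, a gene of germ cells and tumours, had 0 counts in 72Q and 2, 8, 5 and 2 in 25Q libraries, at least 6.09-fold lower, and Uox, urate oxidase, had 0 in 72Q and 10 counts over 25Q, at least 3.58-fold lower.

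The sequences upstream of the RefSeq start of 3 of these genes are shown because the genes had counts in every 72Q library and none in 25Q libraries. Each is the 250 bases before the start of the gene in RefSeq (GRCm38.p6), on the gene's strand, with each CpG in capitals. They lie at chr9:24774304-24774553 (minus strand) for Tbx20, chr8:78436648-78436897 (minus strand) for Pou4f2 and chr2:9878601-9878850 (minus strand) for Gata3. The Gata3 window lies inside the span over which its reads were counted, chr2:9857078-9890034, so it is upstream of the RefSeq start only.
Tbx20: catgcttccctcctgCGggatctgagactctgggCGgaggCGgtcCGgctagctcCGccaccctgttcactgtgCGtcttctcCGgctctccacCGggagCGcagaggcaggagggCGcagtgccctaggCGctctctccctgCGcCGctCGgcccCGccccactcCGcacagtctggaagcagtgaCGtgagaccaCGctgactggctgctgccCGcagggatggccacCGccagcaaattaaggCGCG
Pou4f2: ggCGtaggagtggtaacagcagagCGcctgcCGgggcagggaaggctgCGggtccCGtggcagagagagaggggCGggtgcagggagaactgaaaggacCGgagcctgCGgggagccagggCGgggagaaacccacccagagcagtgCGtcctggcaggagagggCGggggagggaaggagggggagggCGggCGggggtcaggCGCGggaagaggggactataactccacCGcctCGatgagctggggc
Gata3: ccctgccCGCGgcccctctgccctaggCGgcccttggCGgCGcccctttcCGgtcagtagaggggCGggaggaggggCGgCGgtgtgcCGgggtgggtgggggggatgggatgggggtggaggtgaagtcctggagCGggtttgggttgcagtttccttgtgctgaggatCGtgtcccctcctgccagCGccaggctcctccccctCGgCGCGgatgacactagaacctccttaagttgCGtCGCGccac
These windows hold 22, 17 and 19 CpG dinucleotides, while the median of all 32851 RefSeq windows of the same length is 6. A window for Hoxc4, which also lies inside its counted span, holds 8, and none is given here for Hoxd9 and Isl1. These few windows do not stand for all genes seen in 72Q libraries alone. The CpG counts describe the letters, and no methylation or binding was measured.

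The direction of change depended on the length of the gene on the chromosome. For protein-coding genes the median log2 fold change was 0.04 for 3364 genes under 10 kb, 0.06 for 4314 genes of 10 to 30 kb, 0.03 for 3956 genes of 30 to 100 kb, -0.08 for 1647 genes of 100 to 300 kb and -0.34 for 499 genes over 300 kb. Of the genes over 300 kb 61.9% fell and 15.4% rose, against 24.2% and 29.0% of those under 10 kb. The median of the longest class lay between -0.45 and -0.27 in the 4 experiments. It was -0.28 with upper-quartile factors and -0.20 with library totals alone, where the class of 100 to 300 kb stood at 0.06 and all genes at 0.16, and -0.36 among 480 genes with at least 1 CPM in both groups. Long genes in neurons include many adhesion and channel genes, and the share of these in the length trend was not tested. Abundant genes leaned downward: of genes over 100 CPM 46.4% fell and 24.5% rose. Of genes under 1 CPM 7.5% fell and 27.1% rose. The filter keeps a low gene only if it is expressed in some group of the series. Most of these groups carry the expanded fragment, so the filter favours low genes that are higher with it. The upward lean of genes under 1 CPM is therefore not read as a response.

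**Figure D4:**
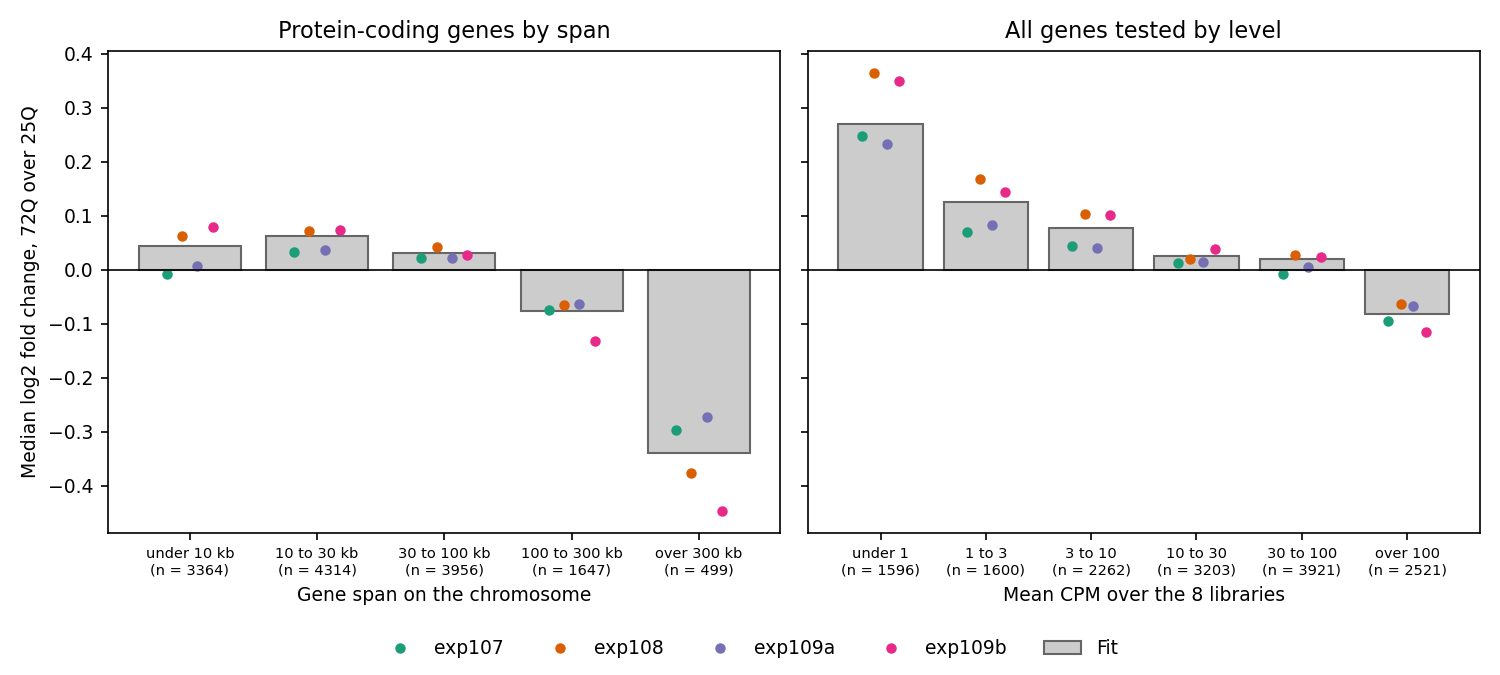
Median log2 fold change (72Q over 25Q) of protein-coding genes by gene span on the chromosome (left) and of all genes tested by mean CPM (right), with a bar for the fit and a point for each experiment. Genes over 300 kb lie lowest, at -0.34, and genes under 1 CPM highest, at 0.27. The filter used all groups of the series, most of them with 72Q, and so favours low genes that are high with 72Q. The value of the class under 1 CPM is therefore not read as a response.

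Long non-coding RNAs were called less often than coding genes in these libraries, 21.5% higher and 16.6% lower of 912 tested, against 30.2% and 28.9% of 13780 coding genes. At least 2-fold calls were more frequent among them, 7.6% higher and 5.6% lower, against 3.4% and 4.2% of coding genes. Calls also vary with level: under 1 CPM 27.1% of genes were higher and 7.5% lower, and over 100 CPM 24.5% and 46.4%. Among low genes the filter favours those higher in 72Q, as given above. Neither the difference between the classes nor the part of level in it was tested. The lowest fold changes were in Dbpht2, Dlx1as, Dlx6os1, Sptbn5 and Kcnmb4os2, and the highest in Spata5l1, Ttc39aos1, Mccc1os, Proscos and Zfp335os. Long non-coding is the class given by GENCODE M21, which takes in processed transcripts. Members such as Sptbn5 and Spata5l1 rest on that class alone, and whether they lack a protein product was not tested. Dbpht2 averaged 37.5 ± 16.1 CPM in 72Q and 197 ± 34.6 CPM in 25Q neurons (log2 fold change -2.45 ± 0.17, adjusted p = 7.03e-07), and Dlx6os1, the antisense transcript of the Dlx6 locus in ventral forebrain neurons, 7.27 ± 2.65 CPM in 72Q and 19.4 ± 3.51 CPM in 25Q neurons (log2 fold change -1.42 ± 0.14, adjusted p = 4.09e-08). The labels do not say whether the counting used strand, so antisense transcripts cannot be told apart from their partners. Miat, a neuronal lncRNA, averaged 33.2 ± 8.65 CPM in 72Q and 69.2 ± 23.6 CPM in 25Q neurons: its groups overlapped, with exp107 low in both, and within each experiment 72Q was lower (log2 fold change -1.03 ± 0.072, adjusted p = 2.68e-12). Gas5, a host of small nucleolar RNAs, rose to 58.1 ± 10.3 CPM in 72Q, against 42.2 ± 7.04 CPM in 25Q neurons (log2 fold change 0.46 ± 0.054, adjusted p = 2.18e-08).

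Some abundant genes were level within narrow bounds. Of 15103 genes, 1885 had a 95% interval of the log2 fold change within 0.2 either side of 0, and 53 within 0.1. The 6 most abundant of the 53 were Clstn1, Atp5b, Serinc1, Mllt11, Slc25a4 and Zyg11b. Clstn1, the calsyntenin of axonal cargo, had 1672, 1552, 1596 and 1558 CPM in 72Q neurons, against 1781, 1496, 1532 and 1562 CPM in 25Q neurons. Atp5b, the beta subunit of ATP synthase, averaged 1004 ± 136 CPM in 72Q and 997 ± 130.2 CPM in 25Q neurons, and Slc25a4, the ADP/ATP carrier, 575 ± 67.6 CPM in 72Q and 577 ± 87.2 CPM in 25Q neurons. These bounds hold for TMM scaling, and with library totals alone, which put the median of all genes tested at 0.16 in place of 0.03, these 6 genes are called higher.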

How the data were processed

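The RNA of 16 libraries was sequenced after Ribo-Zero depletion, per the labels' protocols. The authors deposited, for each library, the raw read count, the CPM (counts relative to the library total) and the RPKM (CPM per kilobase) of 41388 genes. STAR 2.0.4b, Subread featureCounts 1.45 and GRCm38 are named in the submitters' processing notes. The strand setting and annotation release of the count are not known here. Deposited CPM and RPKM values were only checked against the counts and entered no test. GENCODE M21 gave a symbol to 40340 identifiers (97.47%).

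All 16 libraries were fitted together with edgeR 4.0.16 (R 4.3.3): filterByExpr with a minimum count of 10, TMM factors, and a robust quasi-likelihood model of group and experiment, tested for 72Q against 25Q. Fold changes use a prior count of 2, errors are standard errors of the log2 fold change or SDs of 4 libraries, and p-values carry the Benjamini-Hochberg adjustment over 15103 genes. The procedure was tested on simulated data in which few genes changed. That setting differs from these data, so it cannot decide between the scalings. Experiment was the block because the labels name it, and the 4 pairs of libraries from 1 experiment deviated together from their group means (correlations 0.244 to 0.455). Across exp109a and exp109b the libraries correlated nearly as much (0.213 and 0.224), so these 2 experiments may not be independent replicates. Other pairs across experiments were negative (-0.233 to -0.133). Deviations from a group mean cancel out, so these negative values follow from the positive ones and add no evidence of their own. DESeq2 1.42.0, other scaling, filters and blocks, and fits without each library or experiment were the alternatives.

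The gene lists and the genes named were chosen with earlier results of these data known. Named genes were those with the largest gains or losses of CPM, the highest and lowest fold changes, up to 4 called members of a list per direction, the extreme long non-coding RNAs, those seen in 1 group alone, and the most abundant level genes, plus members whose role needed a value. A few genes that this rule names are not reported here.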

Additional observations from a re-analysis of the deposited data

Results flagged for a closer look

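For each gene named, a group's 4 libraries were checked for 1 that lay far from the other 3, which Dixon's test at its 95% critical value finds by chance in about 1 of 20 groups. Of 436 pairs of a gene and a group, 27 (6.19%) held such a library, and 16 of the 27 lay in exp108.

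In experiment exp107 the 72Q library stood apart for 1 gene. Sox1 had 35.7 CPM in that library, above the 30.1 to 30.9 CPM of the other 3. In experiment exp107 the 25Q library stood apart for 6 genes. Acacb had 2.43 CPM in that library, above the 1.71 to 1.77 CPM of the other 3. Myh3 had 7.41 CPM in that library, above the 5.02 to 5.27 CPM of the other 3. Rorb had 251 CPM in that library, above the 191 to 197 CPM of the other 3. Sp4 had 69.3 CPM in that library, above the 58.1 to 59.4 CPM of the other 3. Miat had 34.2 CPM in that library, below the 77.5 to 85.4 CPM of the other 3. Pfkp had 181 CPM in that library, below the 246 to 255 CPM of the other 3.

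In experiment exp108 the 72Q library stood apart for 7 genes. Atp5b had 1207 CPM in that library, above the 913 to 949 CPM of the other 3. Atp5g1 had 22.7 CPM in that library, above the 15.9 to 16.9 CPM of the other 3. Slc25a4 had 676 CPM in that library, above the 539.8 to 544 CPM of the other 3. Tuba1c had 58.0 CPM in that library, above the 0.183 to 8.93 CPM of the other 3. Hoxd9 had 0.409 CPM in that library, below the 0.981 to 1.04 CPM of the other 3. Sox4 had 111 CPM in that library, below the 154 to 163 CPM of the other 3. Tbx20 had 0.875 CPM in that library, below the 1.87 to 2.01 CPM of the other 3. In experiment exp108 the 25Q library stood apart for 9 genes. Slc25a4 had 707 CPM in that library, above the 522 to 539.8 CPM of the other 3. Tfrc had 285 CPM in that library, above the 149 to 162 CPM of the other 3. Tuba1c had 143 CPM in that library, above the 0.579 to 19.4 CPM of the other 3. AW551984 had 7.82 CPM in that library, below the 11.3 to 12.0 CPM of the other 3. Dsp had 0.672 CPM in that library, below the 2.02 to 2.16 CPM of the other 3. Met had 259 CPM in that library, below the 343 to 356 CPM of the other 3. Rasgrp1 had 53.2 CPM in that library, below the 59.4 to 60.4 CPM of the other 3. Sesn2 had 51.2 CPM in that library, below the 67.5 to 70.8 CPM of the other 3. Sox11 had 204 CPM in that library, below the 266 to 277 CPM of the other 3.

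In experiment exp109a the 25Q library stood apart for 1 gene. Scg2 had 129 CPM in that library, below the 147 to 151 CPM of the other 3. In experiment exp109b the 25Q library stood apart for 3 genes. Spata5l1 had 7.94 CPM in that library, above the 5.34 to 5.73 CPM of the other 3. Eif4ebp1 had 22.0 CPM in that library, below the 24.3 to 24.8 CPM of the other 3. Smad9 had 11.1 CPM in that library, below the 12.9 to 13.2 CPM of the other 3.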

How the results depend on the processing

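The counts of called genes kept within 1.5 times of the values in the report under each alternative tried except 1: with library totals alone in place of TMM factors, 6781 genes were higher in 72Q than in 25Q neurons. Leaving out each of the 8 libraries gave 3938 to 4305 higher and 3930 to 4148 lower genes, and leaving out each experiment gave 3688 to 4101 and 3753 to 4005. The fit with the replicate block by title number called 3560 genes higher and 3624 lower, and the fit with no replicate block called 3235 and 3291. At least 2-fold differences numbered 552 to 643 higher and 592 to 722 lower without each library, and 523 to 630 and 573 to 728 without each experiment. With exp109a or exp109b left out, which keeps 1 library of each group from the experiments numbered 109, 4101 and 3688 genes were higher and 4005 and 3753 lower.

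Of the 218 genes named, 216 kept their call and direction with upper-quartile factors, 207 with library totals alone, 214 with no replicate block, 217 with DESeq2's Wald test and all 218 with no filter, and none was called in the opposite direction. The Wald test moved the fold change of 7 genes by over 1.5 times, and a prior count of 0.5 that of 6. Of 43 list medians, 9 changed sign with upper-quartile factors: cytosolic ribosomal proteins, translation factors, nuclear pore, kinesins and dynein, Wnt, pumps and transporters, cholinergic to purinergic receptors, KLF and SP factors, and fatty acid synthesis. With library totals alone 14 did, which adds glycolysis, Notch, BMP and TGF-beta, FGF and cyclic AMP. With no block, 13 autophagy and 15 lysosomal genes rose. The comparison by promoter CpG content was not run, because a RefSeq window exists for 79.8% of the tested coding genes, 77.7% of those at least 2-fold higher and 70.6% of those at least 2-fold lower, which makes it void.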

Other observations

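A few genes differed far more between experiments than between the groups, in the same order in both groups, and 3 of them are named here after their values were seen. Tuba1c, an alpha-tubulin on chromosome 15, had 0.183, 58.0, 8.93 and 8.05 CPM in 72Q neurons, against 0.579, 143, 19.4 and 16.4 CPM in 25Q neurons, in the order exp107, exp108, exp109a and exp109b. Rpl26, a ribosomal protein gene on chromosome 11, had 29.4, 18.6, 1.41 and 2.01 CPM in 72Q neurons, against 29.7, 20.3, 1.17 and 1.40 CPM in 25Q neurons. Rpsa-ps10, a processed pseudogene on chromosome 3, had 57.2, 0.117, 48.3 and 44.6 CPM in 72Q neurons, against 72.1, 0.367, 58.0 and 53.2 CPM in 25Q neurons. Within an experiment the groups lay close together for Rpl26 (log2 fold change 0.00 ± 0.12, adjusted p = 0.995), and Tuba1c was lower in 72Q neurons in all 4 experiments (log2 fold change -1.19 ± 0.09, adjusted p = 1.79e-12, but 0.553 with no replicate block). Each of the 3 has near-identical copies in the genome, so its level is uncertain where counting could split reads among copies, and whether that bears on these values was not tested.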
